A study of Mus musculus with 52 samples.

Results

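The mouse embryonic stem (ES) cell lines HM-1 and B6PGA were set against each other on 4 two-colour cDNA arrays. These are the arrays whose titles name both lines, 4 of the 52 in the series. Each array carried HM-1 RNA in one dye and B6PGA RNA in the other, with B6PGA in Cy5 on arrays 1 and 2 and in Cy3 on arrays 3 and 4. HM-1 is an established ES line in wide use for gene targeting. The labels give B6PGA by its name alone and do not spell out B6 or PGA. Per the design text, the lines of the series differ in the source of the nuclei from which they were derived. No genotype, passage, culture condition or feeder layer is given for either line in the sources used here. The labels' protocol speaks of organs and of a pooled reference, whereas both channels of these arrays are labelled with an ES line, which was taken as given. Nothing states that the 4 arrays came from separate cultures, so p-values measure the spread between arrays, which may be technical. That spread, and with it each standard error, was estimated per feature over all 52 arrays of the series. It does not measure how well these 4 arrays agreed.

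ES cells are taken from the early embryo and divide without limit while they keep the capacity to form all tissues of the body. A network of transcription factors around Pou5f1, Sox2 and Nanog holds this state, and Zfp42 (also called Rex1) marks its naive form. ES cells are often grown on a layer of fibroblasts, which secrete collagens and other matrix proteins that ES cells make little of. They cycle fast with a short first gap phase, and their replication-dependent histone genes are used in every S phase.

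All values below are log2 ratios, B6PGA minus HM-1, with the standard error (SE) of the fit. A positive value means more signal from B6PGA if the deposited ratio is Cy5 over Cy3. The numerator dye is not stated. If it is Cy3, every sign turns at once, so values are called positive or negative. The table holds ratios and no levels, so whether either line had the defining markers of an ES cell could not be read from it. Of the Y-linked genes, Kdm5d was at 0.98 ± 1.17 and Zfy1 at -0.04 ± 0.46, and neither settles the sign. The 4 arrays measured between 19362 and 19572 of 20794 probes. After probes of a gene were averaged, 16191 features were tested, 8619 of them named genes and the rest single probes with no gene listed. Arrays of the same dye orientation had a mean Spearman correlation of 0.231 over all tested features. Arrays of opposite orientation had one of -0.012, with values from -0.034 to 0.011. The number of arrays limits the precision: the median SE over all features was 0.43.

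Matrix genes of fibroblasts and the opioid precursor Penk were positive, and Zfp42, Dhcr7 and histone genes were negative. In all, 80 of 16191 features passed an adjusted p of 0.05 (limma, Benjamini-Hochberg over all features), which is 0.494% of those tested. Of these, 63 were positive (0.389%) and 17 negative (0.105%). Named genes made up 56 of the 80, with 45 positive and 11 negative. The sign was the same on every measured array for 72 of the 80, and 50 were past 0.5 on every array in 1 direction. Over all features 7.73% were positive on every measured array and 9.32% negative. The median of all features was -0.04, and 45.2% were positive. Without array 3 the calls were 34 positive and 41 negative, and without array 4 they were 38 and 30, so the excess of positive calls rests on those arrays. Fitted without the other comparisons, which lend their estimate of the spread, the 4 arrays gave 0 calls by limma, with an unadjusted p under 0.05 for 1471 features against 1078 in the fit of all comparisons.

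The called features differed in how alike their values were between the dye orientations. In 25 of the 80 called features the means of the 2 orientations differed by over 2 on the log2 scale, 20 of them positive and 5 negative. These were mostly near 0 in one orientation and far from it in the other. All 20 positive features had the mean farther from 0 with HM-1 in Cy5, and all 5 negative features had it with B6PGA in Cy5. So in all 25 the mean farther from 0 was a negative ratio as deposited, whichever line was in Cy5. Whether these values came from the dye or from the line was not tested.

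**Figure D1:**
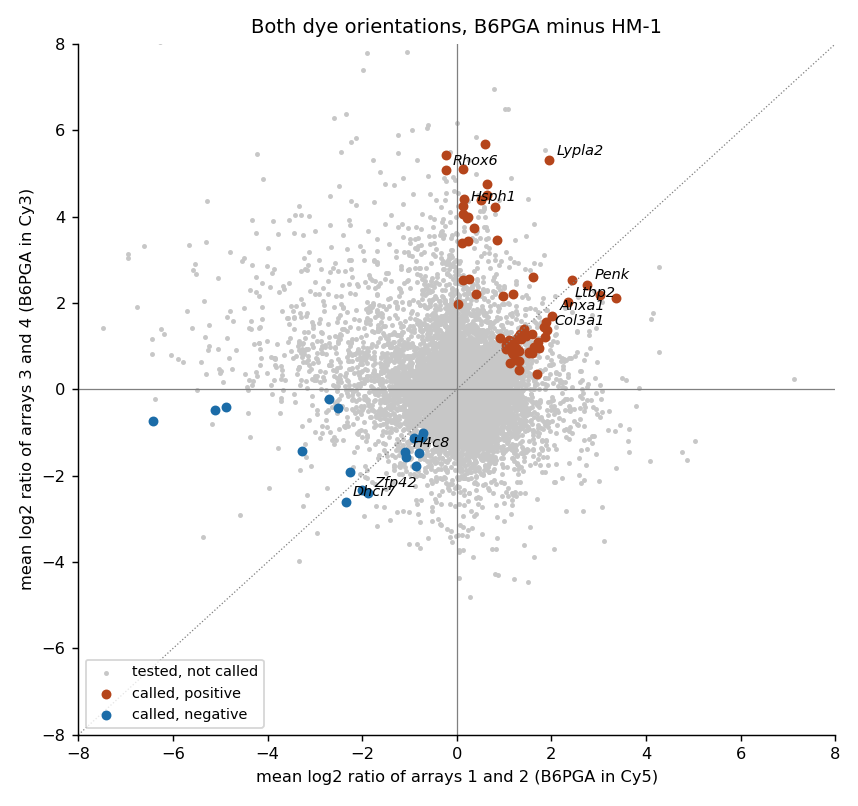
Mean log2 ratio (B6PGA minus HM-1) of arrays 1 and 2 on the horizontal axis against that of arrays 3 and 4 on the vertical axis, for every tested feature, with the 80 called features coloured by sign and 4 features outside the axes not drawn. Called genes such as Penk, Col3a1, Zfp42 and Dhcr7 lie near the dotted line of equal values, while Rhox6, Hsph1 and others lie along the vertical axis, with a large mean in 1 orientation only.

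The positive gene with the smallest adjusted p was Penk (Entrez gene 18619, chromosome 4), which encodes proenkephalin, the precursor of the enkephalin peptides. Its ratio was 2.31, 3.20, 1.96 and 2.89 on arrays 1 to 4. Both orientations gave like values, and the fit put it at 2.59 ± 0.29 (n = 4 arrays, limma adjusted p = 7.8e-07), a ratio of 6.03 to 1. Anxa1 (chromosome 19), a calcium-dependent phospholipid-binding protein with anti-inflammatory action, was at 1.77, 2.27, 1.77 and 1.65, with a fitted value of 1.86 ± 0.25 (limma adjusted p = 1.4e-05). App (chromosome 16), the membrane protein from which amyloid peptide is cut, was at 1.97, 1.79, 1.61 and 1.53, or 1.73 ± 0.25 in the fit. Ogt (X chromosome), which attaches N-acetylglucosamine to nuclear and cytosolic proteins, was at 1.18, 1.19, 1.85 and 2.58, or 1.70 ± 0.25. Its arrays 3 and 4 were above arrays 1 and 2, and with 1 coefficient per line, which draws on every route between the lines, it was at 0.78 and not called (limma adjusted p = 0.21). The lymphocyte surface receptor gene Cd5 (chromosome 19) was at 1.64 ± 0.26, with arrays between 1.37 and 1.85. Prss23, a secreted serine protease, was at 1.41 ± 0.24, and its 3 probes lay between 1.10 and 1.79. Ltbp2 (chromosome 12), a microfibril protein of the matrix, was at 2.43, 2.26, 2.32 and 1.72, or 2.18 ± 0.39. Naprt, which makes nicotinic acid into a precursor of NAD, ran from 2.30 to 2.78 over the 4 arrays and was at 2.49 ± 0.51 in the fit, a call lost without array 4 (2.39, limma adjusted p = 0.061). Apoe, the lipid carrier of lipoproteins, ran from 1.26 to 1.60 and was at 1.44 ± 0.35, just inside the threshold (limma adjusted p = 0.049), and no fit that left out an array called it.

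The other positive genes with large fitted values were uneven between orientations. Lypla2, a thioesterase that removes palmitate from proteins, had the largest positive fitted value among named called genes, 3.63 ± 0.62. Its arrays read 3.49, 0.42, 8.79 and 1.84, so that array 3 stood far above array 2, and without array 3 it was at 2.02 and not called (limma adjusted p = 0.059). Ntm, a neural cell adhesion protein, was at 0.35 and 0.67 on arrays 1 and 2 and at 5.02 and 3.77 on arrays 3 and 4. Hsph1, a large cytosolic heat shock protein, was at 0.23 and 0.04 against 4.49 and 4.00. Sectm1a was at 0.005 and 1.25 against 6.05 and 2.93, and Gramd3 at 0.97 and 0.72 against 4.60 and 2.34. Ntm, Hsph1, Sectm1a and Gramd3 all lost their calls without array 3 and without array 4, at 1.69 and 2.12 for Ntm (1.32 and not called with 1 coefficient per line), 1.53 and 1.70 for Hsph1, 1.57 and 2.64 for Sectm1a and 1.49 and 2.27 for Gramd3. Gramd3 also lost it without array 1 (2.39). With deposited ratios under -5 treated as not measured, an alternative chosen after the data were seen, Lypla2 was at 2.02, Ntm at 1.69, Sectm1a at 1.57 and Rhox6, described below, at 1.57, and none was called. Apoe and Fn1 kept their values of 1.44 and 0.99 under it and just missed the threshold (limma adjusted p = 0.056 for both), and Cox10 and Mettl14 could not be tested.

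**Figure D2:**
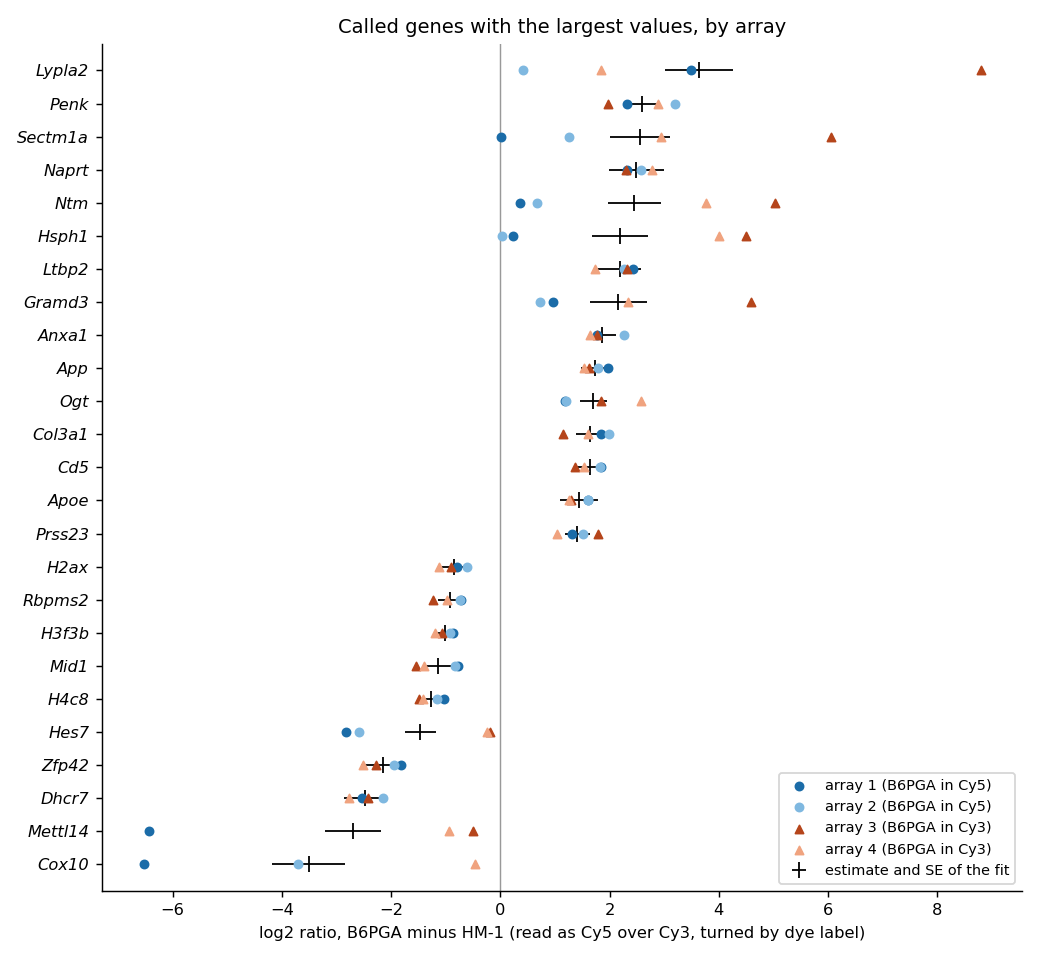
Log2 ratio of B6PGA minus HM-1 on each of the 4 arrays (circles with B6PGA in Cy5, triangles with B6PGA in Cy3) for the 25 called genes with the largest fitted values and the same sign on every measured array, with the fitted value and its SE in black. Penk, Anxa1, App, Zfp42 and Dhcr7 have 4 close values, whereas Lypla2 reaches 8.79 on array 3 and Mettl14 falls to -6.43 on array 1.

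On the negative side Dhcr7 (chromosome 7), which encodes the last enzyme of cholesterol synthesis, read -2.54, -2.15, -2.42 and -2.77 on the 4 arrays. All 4 values lay close together in both orientations, and the fitted value was -2.47 ± 0.39 (limma adjusted p = 2.0e-04), a ratio of 5.55 to 1. It was the 1 called member of 13 cholesterol synthesis genes tested, where 0.105% of all features were called and negative. The list median was 0.00 beside -0.04 for all features. The other 12 ran from -0.73 to 1.11. Zfp42 (chromosome 8) read -1.82, -1.95, -2.28 and -2.51, and its fitted value was -2.14 ± 0.41 (limma adjusted p = 4.1e-03), a ratio of 4.41 to 1. Both genes kept their calls without any single array.

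Zfp42 was also the 1 called member of 25 core pluripotency genes tested, of 40 listed. Of all features 0.494% were called, and 0.105% were called with a negative value. The list had a median of -0.02, with 12 members positive and 13 negative, against 45.2% positive among all features. Its other members had fitted values between -0.92 and 0.58. The ends of this range were Mybl2, a cell cycle transcription factor (-0.92 ± 0.59 on 3 arrays), and Tcl1, a coactivator of Akt (0.58 ± 0.32), with the growth factor Fgf4 next at 0.57 ± 0.37. A pair of members was singled out after the values were seen. Lin28a, an RNA-binding protein that blocks let-7 processing, was at -0.79 ± 0.26 with the same sign on all 4 arrays, and did not pass (limma adjusted p = 0.24). Pou5f1, the octamer-binding factor at the centre of the network, was at -0.10 ± 0.22. None of the 13 primed epiblast markers passed, with Gsc at -1.03 ± 0.53 and Crabp1 at 0.78 ± 0.28 at the ends of the list. None of 27 genes of the LIF, FGF, Wnt, BMP and Nodal pathways passed either.

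Hes7, a repressor of the segmentation clock, was at -2.83 and -2.58 on arrays 1 and 2 and at -0.20 and -0.26 on arrays 3 and 4, with a fitted value of -1.47 ± 0.29. It lost its call without array 1 (-1.12), without array 2 (-1.20) and with 1 coefficient per line (-0.90). Cox10, an enzyme of heme A synthesis for cytochrome oxidase, and Mettl14, a subunit of the RNA methyltransferase for N6-methyladenosine, were each measured on 3 arrays. Cox10 read -6.53 and -3.71 on arrays 1 and 2 and -0.48 on array 4, and Mettl14 read -6.43 on array 1 and -0.51 and -0.95 on arrays 3 and 4. Their fitted values were -3.51 ± 0.67 and -2.71 ± 0.52. Arrays 1 and 2 lay far below array 4 for Cox10, and array 1 far below arrays 3 and 4 for Mettl14. Without array 1 Cox10 was at -2.09 and not called, and Mettl14 could not be tested, nor could Cox10 without array 4. With 1 coefficient per line Mettl14 was at -1.26 and not called. Mid1, an X-linked microtubule-associated ubiquitin ligase, was at -1.14 ± 0.26, with its 3 probes from -1.79 to -0.14, and Rbpms2, an RNA-binding protein of smooth muscle, at -0.92 ± 0.22. Neither was called in any fit that left out an array.

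Histone genes were negative as a list. Of 15 tested, 14 were negative and 8 were negative on every array, beside 9.32% of all features, and the median was -0.41. The medians on arrays 1 to 4 were -0.50, -0.20, -0.64 and -0.66. H4c8 (chromosome 13), a replication-dependent histone H4 gene, read -1.04, -1.16, -1.49 and -1.42, and its fitted value of -1.28 ± 0.15 had the smallest adjusted p of the negative genes (limma, 1.4e-06). H3f3b, which encodes the replication-independent variant H3.3, was at -1.01 ± 0.21, with both probes near that value and neither past the threshold singly. H2ax, the variant that is phosphorylated at DNA breaks, was at -0.86 ± 0.21. H3c1 was at -1.12 ± 0.35 and did not pass (limma adjusted p = 0.19), and the linker histone gene H1f2 was the 1 positive member at 0.30 ± 0.19. Thus 3 of 15 were called, all negative, where 0.105% of all features were. H2ax was called in no fit that left out an array. H3f3b was not called without array 3 (-0.97) or array 4 (-0.93), which left H4c8 alone there.

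The promoters of Zfp42 and H4c8 are shown because these genes had negative values on all 4 arrays and were the called genes of lowest adjusted p in the pluripotency and histone lists. Of the other 24 pluripotency genes 12 were positive and 12 negative. Each sequence is 300 bases from RefSeq (GRCm38.p6), 250 before to 50 after the annotated start, read 5′ to 3′ on the gene's strand. Capitals mark 4 motifs searched on both strands: TATAAA, the CCAAT box, GGGCGG and the octamer ATTTGCAT. Among 32851 RefSeq promoters of this length 13.6% held TATAAA, 37.4% CCAAT, 35.7% GGGCGG and 1.74% the octamer. Zfp42 lies on the minus strand at chr8:43306960-43307259, and H4c8 on the plus strand at chr13:23530794-23531093.
Zfp42: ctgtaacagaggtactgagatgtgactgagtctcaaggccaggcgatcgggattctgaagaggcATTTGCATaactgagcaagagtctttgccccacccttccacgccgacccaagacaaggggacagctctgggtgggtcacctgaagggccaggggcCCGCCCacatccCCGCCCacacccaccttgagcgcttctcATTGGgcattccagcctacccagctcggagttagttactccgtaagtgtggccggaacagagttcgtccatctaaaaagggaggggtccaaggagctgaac
H4c8: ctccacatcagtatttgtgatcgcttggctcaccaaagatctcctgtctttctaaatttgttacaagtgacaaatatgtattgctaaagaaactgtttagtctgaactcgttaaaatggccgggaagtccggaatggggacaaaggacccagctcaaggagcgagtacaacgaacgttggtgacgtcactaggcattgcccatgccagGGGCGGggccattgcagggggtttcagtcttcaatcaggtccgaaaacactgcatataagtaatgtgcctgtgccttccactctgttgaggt
The Zfp42 window held the octamer 186 bases before the start, a CCAAT box and 2 copies of GGGCGG. The H4c8 window held 1 GGGCGG, 42 bases before the start, and none of the other 3 motifs. A match is a description of these letters and not a bound site.

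Fibroblast and feeder markers formed the list with the largest median. Of 44 listed genes 35 were on the array and all 35 were tested. Their median was 0.90, and 34 of 35 were positive, with medians of 0.90, 0.92, 0.53 and 0.74 on arrays 1 to 4. Positive values on every array were found for 25 of 35, beside 7.73% of all features. Called were 8 of 35, all positive, where 0.389% of all features were. In a bulk sample, more cells of a type and more RNA per cell cannot be told apart, and the ratio table gives no level of these markers in either line.

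Collagen chains and Lox were among the called members, with Col3a1 the largest by fitted value. Col3a1 (chromosome 1) read 1.84, 1.99, 1.15 and 1.60, with a fitted value of 1.64 ± 0.25 (limma adjusted p = 1.8e-04). Col1a1 (chromosome 11) read 1.95, 1.10, 1.13 and 0.55, or 1.18 ± 0.24, and was not called without the dye term (limma adjusted p = 0.14). Col1a2 (chromosome 6), which encodes the partner chain of type I collagen, read 1.48, 1.02, 1.04 and 1.25, or 1.20 ± 0.26. Its 4 probes spread from 0.26 to 1.79. The type VI chain Col6a2 was at 1.05 ± 0.23 (0.57 and not called with 1 coefficient per line), while the type V chain Col5a2 was the 1 negative member of the list, at -0.81 ± 0.54 and not called. Lox (chromosome 18), the enzyme that starts the cross-linking of collagen, read 1.49, 1.19, 1.37 and 1.17, or 1.31 ± 0.20 (limma adjusted p = 1.7e-04). Its 3 probes differed, from -0.03 to 2.38, and 2 of them passed singly.

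Glycoproteins and the cytoskeleton gave the other called members. Sparc (chromosome 11), a collagen-binding matrix glycoprotein, was at 1.25 ± 0.27, fibronectin, Fn1, at 0.99 ± 0.25 and the intermediate filament gene Vim at 0.97 ± 0.21. Fibronectin had 5 probes between 0.41 and 1.41, and none passed singly. Neither of the 2 Vim probes passed singly. Further members had values as large with wider errors and did not pass. The matrix protease gene Mmp3 (1.76 ± 0.61) and the secreted matrix protein gene Ccdc80 (1.67 ± 0.51) were positive on all 4 arrays. Of the list, Lox and Col3a1 kept their calls without any single array. Without array 1, 2 members were called, without array 2, 6, and without array 3 or array 4, 4, while the median stayed between 0.67 and 0.98.

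**Figure D3:**
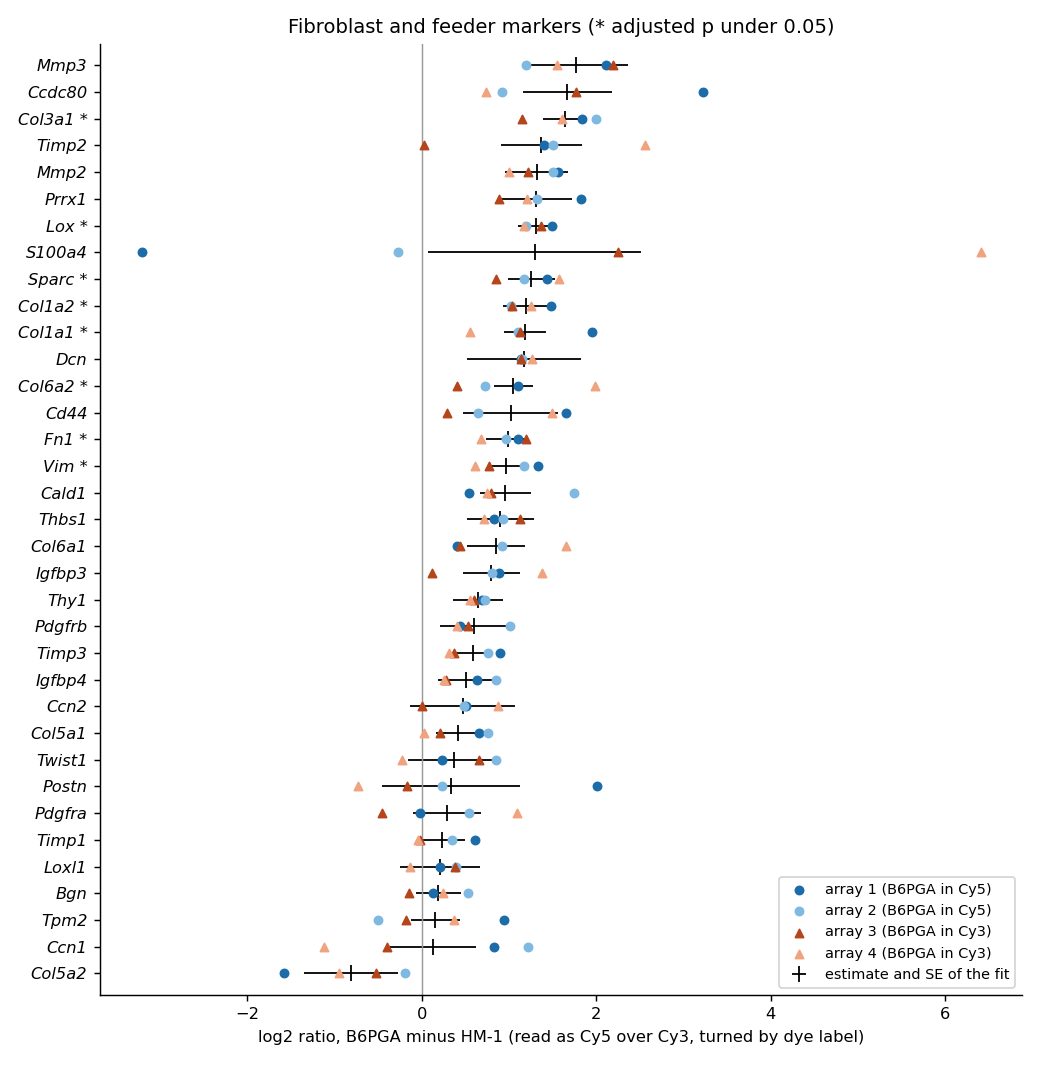
Log2 ratio of B6PGA minus HM-1 on each array (circles with B6PGA in Cy5, triangles with B6PGA in Cy3) for the 35 tested fibroblast and feeder markers, with the fitted value and its SE in black and an asterisk on the 8 called. All fitted values except that of Col5a2 are above 0, and S100a4 has the widest spread, from -3.21 on array 1 to 6.41 on array 4.

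Promoters of 3 called matrix genes that were positive together are shown with the same motifs in capitals. Col1a2 is on the plus strand at chr6:4505368-4505667, Col3a1 on the plus strand at chr1:45311288-45311587 and Sparc on the minus strand at chr11:55420031-55420330.
Col1a2: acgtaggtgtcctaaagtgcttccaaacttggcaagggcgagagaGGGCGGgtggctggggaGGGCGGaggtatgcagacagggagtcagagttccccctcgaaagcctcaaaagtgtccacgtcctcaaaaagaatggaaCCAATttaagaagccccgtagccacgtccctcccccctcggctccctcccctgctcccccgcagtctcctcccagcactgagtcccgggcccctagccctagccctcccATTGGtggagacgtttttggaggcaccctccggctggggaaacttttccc
Col3a1: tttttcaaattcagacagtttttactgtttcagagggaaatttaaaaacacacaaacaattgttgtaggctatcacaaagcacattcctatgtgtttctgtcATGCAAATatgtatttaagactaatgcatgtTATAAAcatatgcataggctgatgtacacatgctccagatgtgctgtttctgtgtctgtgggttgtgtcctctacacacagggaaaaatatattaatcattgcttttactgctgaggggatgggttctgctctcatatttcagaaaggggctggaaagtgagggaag
Sparc: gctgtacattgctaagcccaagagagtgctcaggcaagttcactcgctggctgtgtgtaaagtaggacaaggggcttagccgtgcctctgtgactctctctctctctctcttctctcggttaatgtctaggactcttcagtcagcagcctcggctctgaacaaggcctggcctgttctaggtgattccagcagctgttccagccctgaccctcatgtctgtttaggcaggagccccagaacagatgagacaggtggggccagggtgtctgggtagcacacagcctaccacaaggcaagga
The Col1a2 window held 2 CCAAT boxes and 2 copies of GGGCGG. The Col3a1 window held TATAAA and the octamer, 117 and 148 bases before the annotated start. None of the 4 motifs was found in the Sparc window, so the 3 windows had no motif in common.

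Markers of extraembryonic lineages gave 4 calls. Among 16 markers of primitive and visceral endoderm, the yolk sac lineage, 3 were called, Apoe, Sparc and Ttr, all positive, where 0.389% of all features were. The list median was 0.19, with 9 members positive and 7 negative. Lowest were Afp at -0.51 ± 0.31 and Sox17 at -0.42 ± 1.11, neither of them called. Sparc is in the fibroblast list as well. Ttr, a thyroid hormone carrier, was at 0.24 and 0.59 on arrays 1 and 2 and at 2.14 and 2.30 on arrays 3 and 4, or 1.32 ± 0.25 in the fit. Its 2 probes were at 0.15 and 2.48, and it lost its call without array 3 (1.05), without array 4 (0.99) and with 1 coefficient per line (0.66). Gata6, a transcription factor that defines this lineage and was singled out after its value was seen, was at -0.16 ± 0.64 on 3 arrays and was not called.

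Among 11 trophectoderm markers 1 was called, with a positive fitted value, where 0.389% of all features were. Rhox6, an X-linked homeobox gene of the placenta, read -0.78, 0.32, 4.79 and 5.36, so it changed sign between arrays, and its fitted value of 2.42 ± 0.53 rests on arrays 3 and 4. It was at 1.76 without array 3 and 1.57 without array 4, and called in neither fit. The list median was 0.00.

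Among 24 genes of the interferon response and antigen presentation 2 were called, both positive, where 0.389% of all features were, and the median was 0.24. B2m, the light chain of class I molecules, read 1.27, 1.59, 1.24 and 1.31, or 1.35 ± 0.32. Ifitm3, an interferon-induced membrane protein, was at 1.26 ± 0.29, with arrays between 1.04 and 1.55. At the other end lay the interferon regulator Irf7 at -0.64 ± 1.04, which did not pass. The list had 14 members positive and 10 negative. Ifitm1, singled out after its value was seen, was at -0.55 ± 0.20, negative on all 4 arrays and not called. Neither B2m nor Ifitm3 was called in any fit that left out an array.

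Housekeeping groups, and the germline and the cumulus and granulosa cell lists, had fitted medians close to that of all features. Of 61 cytosolic ribosomal protein genes 1 was called, where 0.494% of all features were. This was Rpl39 on the X chromosome, at 1.28, 0.96, 0.69 and 0.51, or 0.86 ± 0.16 (limma adjusted p = 3.5e-03), and the list median was 0.08. Rpl39 was not called without the dye term (limma adjusted p = 0.31). The medians of the ribosomal list on arrays 1 to 4 were 0.29, 0.30, -0.21 and -0.185. They changed sign between the orientations, as did the medians of all probes (0.11, 0.10, -0.18 and -0.17). Of 66 heat shock and chaperone genes Hsph1 alone was called, beside the same 0.494% of all features, with a list median of 0.07. No member was called among 57 mitochondrial ribosomal proteins (median -0.07), 68 respiratory chain genes (0.06), 28 proteasome subunits (0.09), 50 cell cycle genes (-0.04), 18 glycolytic genes (-0.11) and 35 chromatin and DNA methylation factors (-0.06). Nor was any among 8 germline genes (0.03) or 9 genes of cumulus and granulosa cells (0.11).

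Imprinted genes, which are read from the copy of 1 parent, gave no call, where 0.494% of all features were called. The 13 paternally expressed genes had a median of -0.19. Dlk1, an inhibitor of adipocyte differentiation, was at -1.14 ± 0.33 and the growth factor Igf2 at 1.09 ± 0.33, so that the ends of this list had opposite signs. Both were uneven between arrays. Dlk1 read -1.61, -2.95, 0.20 and -0.205 on arrays 1 to 4, and Igf2 read 0.75, 0.81, 2.66 and 0.16. The 17 maternally expressed genes had a median of -0.16, with the tetraspanin Cd81 at 1.06 ± 0.27. The 27 p53 targets and apoptosis regulators had a median of 0.20, with Btg2 (1.02 ± 0.30) and the cell cycle inhibitor Cdkn1a (0.84 ± 0.25) the largest, and no call.

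**Figure D4:**
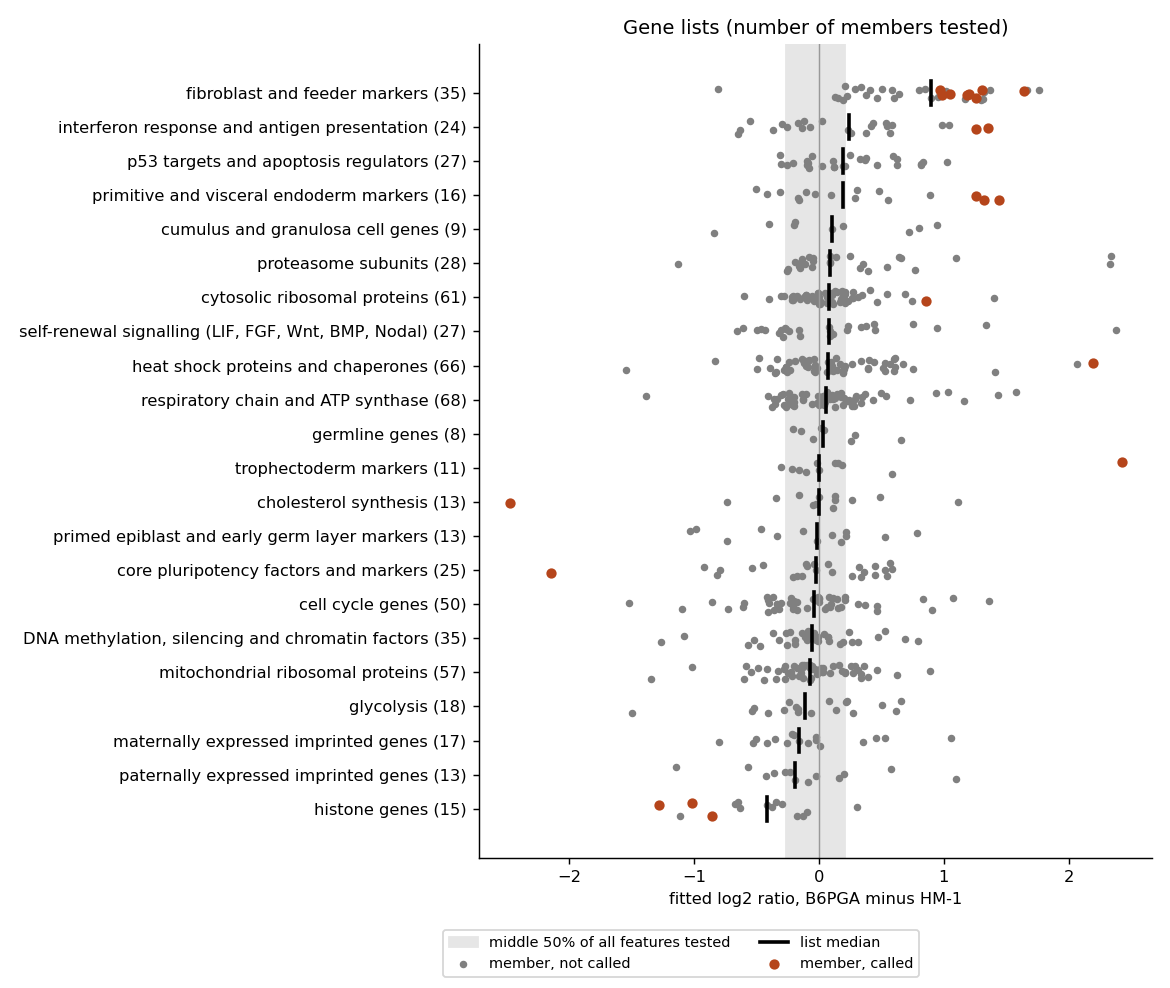
Fitted log2 ratio of B6PGA minus HM-1 (horizontal axis) for the tested members of the 22 lists with at least 5 of them, each point a gene, called members in red and list medians as black bars, over a grey band that holds the middle 50% of all features (-0.26 to 0.21). The fibroblast list, with a median of 0.90, and the histone list, at -0.41, have the medians farthest from the band, and that of the interferon list, at 0.24, lies just above it.

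HM-1 was also hybridised against 5 further lines, named HM-1 NT, #4 (B6), B6NT, PDCUMNT and ZFCUMNT, with 4 arrays each. The labels do not expand these names. These comparisons share HM-1, and the values are set side by side. Zfp42 was at 0.24 in HM-1 NT and at -2.85, -2.90, -2.53 and -2.44 in #4 (B6), B6NT, PDCUMNT and ZFCUMNT, beside -2.14 in B6PGA. H4c8 lay between -1.28 and -0.98 in all 5, beside -1.28 in B6PGA. Dhcr7 was at 0.23 in HM-1 NT, -0.62 in #4 (B6), -1.89 in B6NT, -3.13 in PDCUMNT and -2.54 in ZFCUMNT. Penk was at 1.89 in #4 (B6), where it passed, and from -0.15 to 1.16 in the other 4. Lox ran from -0.23 to 0.14 over the 5 lines, Ltbp2 from -0.15 to 0.56 and Ogt from -0.55 to 0.20. The fibroblast list had medians of 0.32, 0.39, 0.10, 0.19 and 0.01 in HM-1 NT, #4 (B6), B6NT, PDCUMNT and ZFCUMNT, with 1, 1, 0, 0 and 0 members called, beside 0.90 and 8 in B6PGA. Over all features the calls in these lines were 41 of 16127, 36 of 16410, 28 of 16493, 180 of 15842 and 16 of 15906. In B6PGA they were 80 of 16191, so the counts of members called are not on an equal footing. The histone medians were -0.29, -0.14, -0.15, -0.05 and -0.18, beside -0.41.

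A contrast chosen after the data were seen tested, within the joint fit, whether B6PGA minus HM-1 differed from the mean of the other 5 HM-1 comparisons. Of 14369 features 39 passed (0.271%), 33 with a positive difference and 6 with a negative one. Without array 3 there were 27, of which 15 were positive and 12 negative, and without array 4 there were 24, with 13 and 11, so the excess of positive differences rests on those arrays. Among the 37 genes named by rule 16 passed, 13 of them with a positive difference. These genes were picked for their B6PGA values, so this share is a description. Ogt differed by 1.80 ± 0.28 (limma adjusted p = 5.4e-04), Lox by 1.31 ± 0.22 (1.7e-03), Penk by 1.73 ± 0.32 (6.6e-03), App by 1.44 ± 0.27, Anxa1 by 1.40 ± 0.27, Ltbp2 by 1.96 ± 0.43 and Col3a1 by 1.26 ± 0.28 (0.026). Hes7 differed by -1.69 ± 0.31 (limma adjusted p = 6.6e-03). Zfp42 differed by -0.05 ± 0.44, H4c8 by -0.11 ± 0.17 and Dhcr7 by -0.88 ± 0.43, and none of the 3 passed. Of the fibroblast list Lox and Col3a1 passed among 33 tested, and the median difference was 0.53, beside a median near 0 (-3.5e-04) over all features.

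**Figure D5:**
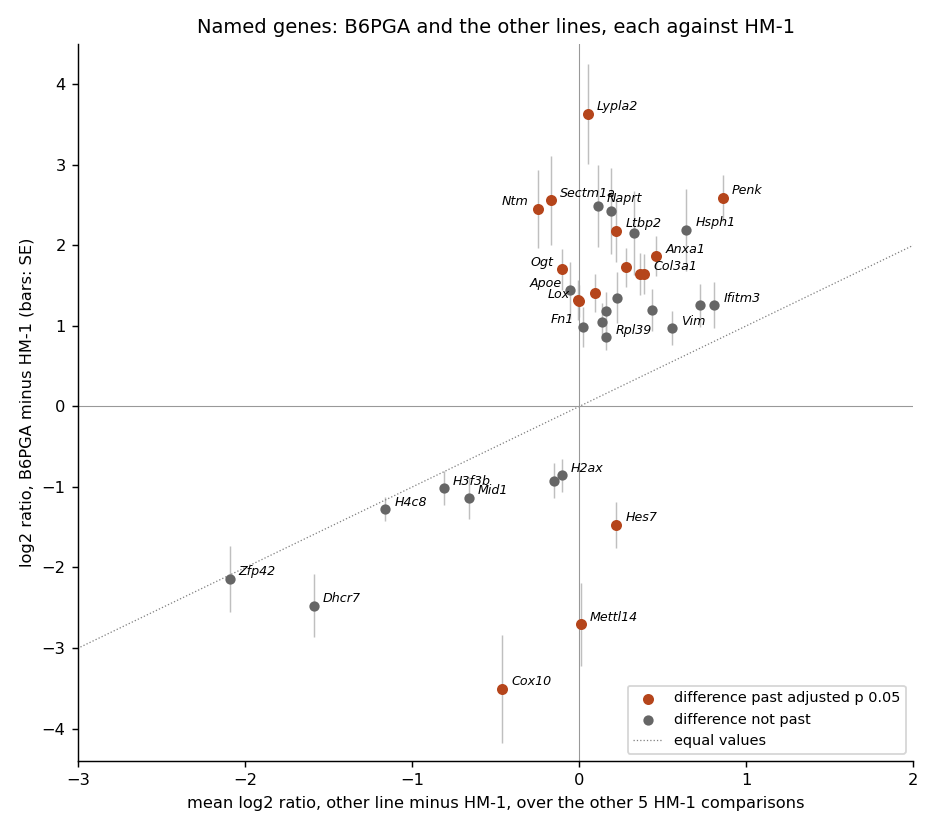
Fitted log2 ratio of B6PGA minus HM-1, with its SE, on the vertical axis against the mean ratio of the other 5 lines minus HM-1 on the horizontal axis, for the 37 genes named by rule, with genes in red whose difference passed an adjusted p of 0.05. Zfp42, H4c8 and H3f3b lie near the dotted line of equal values, while Ogt, Lox and Ltbp2 have means near 0 in the other lines.

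The same difference can be reached through #4 (B6), by adding #4 (B6) minus HM-1 and B6PGA minus #4 (B6), which rest on 8 other arrays. Of 14640 features measured on all 3 sides, none passed a test of the difference between the direct and the summed value (limma, 0 adjusted calls and 765 at an unadjusted p under 0.05). Both routes had the same sign in 53.3% of these features, with a Pearson correlation of 0.07. Among the 78 called features measured on all sides, 60 had the same sign by both routes. Their median was 1.31 directly and 0.34 by the sum. Zfp42 was at -2.14 directly and -2.57 by the sum, of which -2.85 came from the step between HM-1 and #4 (B6). H4c8 was at -1.28 and -1.03, App at 1.73 and 1.86, Anxa1 at 1.86 and 1.68, Vim at 0.97 and 0.91 and Rpl39 at 0.86 and 0.98. For Rpl39 the step between #4 (B6) and B6PGA gave 0.97 of this. Penk was at 2.59 directly and 0.58 by the sum, since its steps of 1.89 and -1.31 had opposite signs. Ogt was at 1.70 and -0.37, the smallest adjusted p of the differences among these genes (2.07 ± 0.44, limma adjusted p = 0.10). Dhcr7 was at -2.47 directly and -0.71 by the sum, Ltbp2 at 2.18 and 0.61 and Hes7 at -1.47 and 0.41. Likewise far apart were Cox10, at -3.51 and 0.025, and Ttr, at 1.32 and -0.31. Of the fibroblast list 32 members were measured on all 3 sides, with a median of 0.88 directly and 0.58 by the sum. A p that misses the threshold does not show that both routes give the same value.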

How the data were processed

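Expression in 7 mouse ES lines was compared on 52 two-colour arrays, 4 for each of 13 comparisons. Per the labels' protocols, 20 µg of total RNA was labelled indirectly with Cy3 or Cy5. The deposited values are log2 ratios of the channels. Scanner, background correction and normalization are not given in the sources used here. The base was read from the values: with each array's constant top value taken as a capped ratio of 100000, ratios under 0.1 on the 4 arrays were whole multiples of 0.001 after a constant shift per array. Top values (above 12) were treated as not measured. Ratios were turned by the dye labels, and probes of a gene were averaged (platform annotation, 12771 of 20794 probes named, 9030 genes). Features measured on at least 3 of 4 arrays in both orientations were tested with limma 3.58.1 (R 4.3.3) in 1 fit of all 52 arrays, with a coefficient per comparison and a dye term. P-values were adjusted by Benjamini-Hochberg over all features tested, at 0.05. The procedure was also run on simulated data with normal noise. These did not mimic ratios that are extreme on 1 array or in 1 orientation, so that run does not bear on such calls. Genes were named by rule: the 15 largest positive and 15 largest negative called genes of 1 sign on every measured array (10 on the negative side), each called member of a list, and the 2 largest members of a list in each direction. The members and lists were chosen with earlier results of these data known. Alternatives are given at the end. Promoters are RefSeq's (GRCm38.p6), and the build of the probes is not given in the sources used here.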

Additional observations from a re-analysis of the deposited data

Results flagged for a closer look

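In the test for a sample far from the others, which chance meets in about 1 of 20 groups, 1 of 54 called genes with 4 measured arrays stood out. Suox, a mitochondrial sulfite oxidase, read 9.38 on array 3, while its other arrays lay between -0.03 and 0.84. Its fitted value of 2.62 ± 0.63 (limma adjusted p = 0.036) rests on that array.

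The values of 39 features in B6PGA minus HM-1 differed from the mean of the other 5 HM-1 comparisons, by a test of the difference itself (limma, adjusted p under 0.05). The named genes among them are described above.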

How the results depend on the processing

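The count of 80 called features was 343 with arrays scaled to equal spread (226 positive, 117 negative), 258 with array weights (147 and 111, all 80 among them), 45 without the dye term and 0 with the 4 arrays fitted alone. It lay between 65 and 76 when an array was left out, and between 63 and 103 with top values kept, array medians subtracted, probes tested singly, other minimums of measured arrays, robust moderation, 1 coefficient per line, or values under -5 not measured. Array numbers did not pair arrays across comparisons (differences between arrays 1 and 2, or 3 and 4, correlated above 0.1 in 0 of 78 pairs of comparisons), and with the replicate number as a block 75 features were called. Of the 37 named genes, 18 to 28 were called when an array was left out, 13 of them in each of the 4 such fits, and 0 with the 4 arrays fitted alone. With 1 coefficient per line 100 features were called, 50 of them shared with the 80, and 8 of the 37 named genes lost their call (Ogt, Ttr, Mettl14, Hes7, Ntm, Col6a2, Col1a2 and Apoe). Without the dye term 12 lost it (Rpl39, Col1a1, Col1a2, Fn1, Apoe, Mid1, Rbpms2, H2ax, Sectm1a, Rhox6, Hsph1 and Gramd3). No feature differed between the direct and the summed route in the fit reported; 1 did with top values kept, with array medians subtracted and with array weights, 3 with scaled arrays, 70 with ratios as deposited and 0 to 1 when an array was left out. The 39 features that differed from the other HM-1 comparisons were 24 to 50 when an array was left out.

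Ratios left as deposited, not turned by dye, set the dyes and not the lines against each other, and gave 287 calls (15 positive, 272 negative), with 4 named genes called, Cox10 with its sign kept and Ntm, Rhox6 and Hsph1 with it turned. Under that setting the median of histone genes was 0.18, and called genes took the opposite sign as follows: H4c8 0.18, Dhcr7 0.13, Zfp42 0.25, H3f3b 0.12, Mid1 0.34, Rbpms2 0.19 and H2ax 0.15 on the positive side, and Ogt -0.51, Lypla2 -1.68, Ttr -0.90, Ntm -1.94, Mier2 -2.84, Naprt -0.048, Mt2 -1.14, Adamts1 -0.025, Col6a2 -0.14, Sectm1a -1.93, Rhox6 -2.65, Hsph1 -2.06, Suox -2.49, Gramd3 -1.31, 1700037H04Rik -0.98, Ddx27 -1.96 and Cnppd1 -1.20 on the negative side. The ratios carry no signal over background, so dim probes could not be set apart, and deposited ratios under -5 (453 probes, 432 of them on 1 array) could not be checked against intensity.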

Other observations

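Further called genes outside the naming rule, singled out after their values were seen, include products of the secretory pathway, matrix and lysosome. Serpinh1, the collagen chaperone of the endoplasmic reticulum, read 1.07, 1.32, 0.72 and 1.20 on the 4 arrays, with a fitted value of 1.08 ± 0.20. Fbln2, an elastic fibre protein, was at 1.10 ± 0.18 and the matrix protease Adamts1 at 1.13 ± 0.24. Ctsd, a lysosomal aspartic protease, read 1.28, 1.03, 0.96 and 0.79, or 1.02 ± 0.15 in the fit (limma adjusted p = 1.4e-04), and the lysosomal membrane gene Lamp2 was at 1.35 ± 0.30. Ctsd, Fbln2 and Lamp2 also differed from the mean of the other 5 HM-1 comparisons, by 1.01, 0.85 and 1.61 (limma adjusted p = 1.7e-03, 0.040 and 0.013). Cell surface genes called were the don't-eat-me signal Cd47 (1.19 ± 0.24) and the prion protein gene Prnp (1.40 ± 0.32). Ctsd, Fbln2 and Serpinh1 kept their calls without any single array. Fbln2 lost its call without the dye term (limma adjusted p = 0.089). Lamp2 lost its call without array 1, array 2 or array 3, without the dye term and with 1 coefficient per line (0.75, limma adjusted p = 0.23). Adamts1 lost its call without array 1 or array 4, and Cd47 and Prnp theirs without array 1 or array 2. Prnp was also not called without the dye term.

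Lefty2, a secreted inhibitor of Nodal, was at 0.11 in B6PGA minus HM-1 and at -1.33 on average in the other 5 HM-1 comparisons, a difference of 1.43 ± 0.27 (limma adjusted p = 6.6e-03). It was not called between B6PGA and HM-1.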
